A study of Mus musculus and Homo sapiens with 22 samples.

Results

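Ptbp1 was knocked down in N2A cells, a mouse neuroblastoma cell line, and the transcript levels of 11128 genes were compared between 1 library of cells given an siRNA pool against Ptbp1 (siPtbp1, letter b) and 2 libraries of cells given a non-targeting siRNA pool (siCtrl, letters a and b). These 3 samples are all those of the series that were transfected with either of these pools, out of 22 samples in all. The genes are those with a mean of at least 1 RPKM (reads scaled by gene length and library total) over the 3 files, out of 22667 genes listed. All 3 libraries came from unmodified N2A cells kept in DMEM with fetal bovine serum and harvested 48 hours after transfection with a lipid reagent. Polyadenylated RNA was sequenced. A further siRNA library, from N2A cells given a pool against U2af65 (siU2af65, letter a), was used for a direct comparison, and the deposited files of 2 puromycin-selected N2A hairpin lines (against GFP or against nSR100) served for reference levels. The study used these cells to examine how nSR100, Ptbp1 and U2af65 act in alternative splicing. Counts over whole genes, as deposited, measure transcript levels and not which exons a transcript holds.

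Ptbp1 (polypyrimidine tract binding protein 1, also hnRNP I) binds pyrimidine-rich RNA and represses many exons that neurons include. Its neuronal paralogue Ptbp2 is held low in non-neuronal cells because Ptbp1 causes skipping of a Ptbp2 exon, which exposes the Ptbp2 transcript to nonsense-mediated decay. In developing neurons the microRNA miR-124 lowers Ptbp1, Ptbp2 takes over, and the repressor REST, BAF chromatin subunits and cytoskeletal genes change during the same transition.

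Reads in genes totalled 63952996 for siCtrl a, 77138004 for siCtrl b and 69957246 for siPtbp1. Levels below are CPM, counts scaled to library size after TMM, edgeR's correction for library composition. They are to be compared between libraries and not between genes, since they are not divided by gene length. The letters a and b are not described in the labels. Whether siPtbp1 and siCtrl b share a day or culture is not given in the sources used here, and the difference from control b alone is therefore printed beside the difference from both. With 1 knockdown library, every p-value rests on the spread between the 2 controls, moderated across genes. Where this moderation is strong, a gene's own gap between the controls counts for little. Nothing in the labels says that the controls came from separate cultures, so this spread may be technical. In bulk RNA, fewer cells expressing a gene and less RNA per cell cannot be told apart.

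N2A identity genes were present in all 3 libraries, but not all of them. Tubb3, the neuronal β-tubulin, had 686, 609 and 571 CPM in siCtrl a, siCtrl b and siPtbp1 respectively, and Chga, a granule protein of neuroendocrine cells, had 219, 209 and 199 CPM. Nefl and Nefm had at most 0.389 CPM in any library and were not among the genes tested. Of 18 immune markers none reached the level for testing, and their summed level was 1.63, 1.86 and 1.3 CPM. Cd3e, Ms4a1, C1qa, C1qb and C1qc had no read in any of the 3 libraries. Glial markers summed to 320, 199 and 214 CPM, of which 35.8, 40.2 and 37.8 CPM remained without the myelin gene Pmp22. Fibroblast and mesenchymal markers summed to 2919, 1680 and 2197 CPM, of which only 14.5, 21.8 and 15.2 CPM were not Vim, and Postn and Fap were at 0. Endothelial and epithelial markers summed to 25.7, 28.6 and 22.5 CPM.

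Ptbp1 fell 18.3-fold. Its level was 518 CPM in siCtrl a, 411 CPM in siCtrl b and 25.3 CPM in siPtbp1, against a control mean of 464 ± 76.1 CPM (SD, n = 2), so 5.46% of the control level remained. The underlying reads were 30897, 32747 and 1827. The log2 fold change was -4.20 (SE 0.34, edgeR quasi-likelihood adjusted p = 0.000364), and -3.99 against control b alone. In RPKM, the siPtbp1 library had 8.53, while the other 5 N2A files lay between 124 (shGFP) and 158 (siCtrl a). The Ptbp1 level thus matched the labels of all 3 libraries.

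Ptbp2 was above both controls, but did not pass the test. Its level was 181 CPM in siCtrl a, 131 in siCtrl b and 254 in siPtbp1. The log2 fold change was 0.70 (SE 0.26, edgeR adjusted p = 0.809), and the differences from control a and control b were 0.49 and 0.96. The adjusted p ran from 0.0306 to 1 over the other tools and settings, and passed 0.05 only in limma. Among the 6 N2A files Ptbp2 was highest in siPtbp1, at 79.1 RPKM against 28.2 to 51 RPKM elsewhere. Ptbp3, the third paralogue, had 140, 107 and 128 CPM, and lay between the controls. The 3 genes are related in sequence and the counting rule is not known, so reads shared among them could be placed on either.

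The partners and relatives of Ptbp1 lay close to their control levels. The corepressor Raver1 differed by 0.02 on the log2 scale, the RNA-binding proteins Matr3 and Hnrnpl by 0.17 and 0.04, and Hnrnpll by -0.03. Hnrnpk, Hnrnpm, Pcbp1 and Pcbp2, other RNA-binding proteins of the nucleus, differed by -0.19, -0.27, -0.18 and -0.09. Srrm4, which encodes the neuronal splicing activator nSR100, had 36.2 and 60.2 CPM in the controls and 32.5 CPM in siPtbp1 (log2 difference -0.57, SE 0.30). Its paralogue Srrm3 had 35.1, 41.9 and 38.4 CPM. Of the 13 tested genes of the family and its partners, Ptbp1 alone passed the test. For comparison, 32.9% of all tested genes were above both controls and 30.9% below both, against 2 and 3 of these 13.

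**Figure D1:**
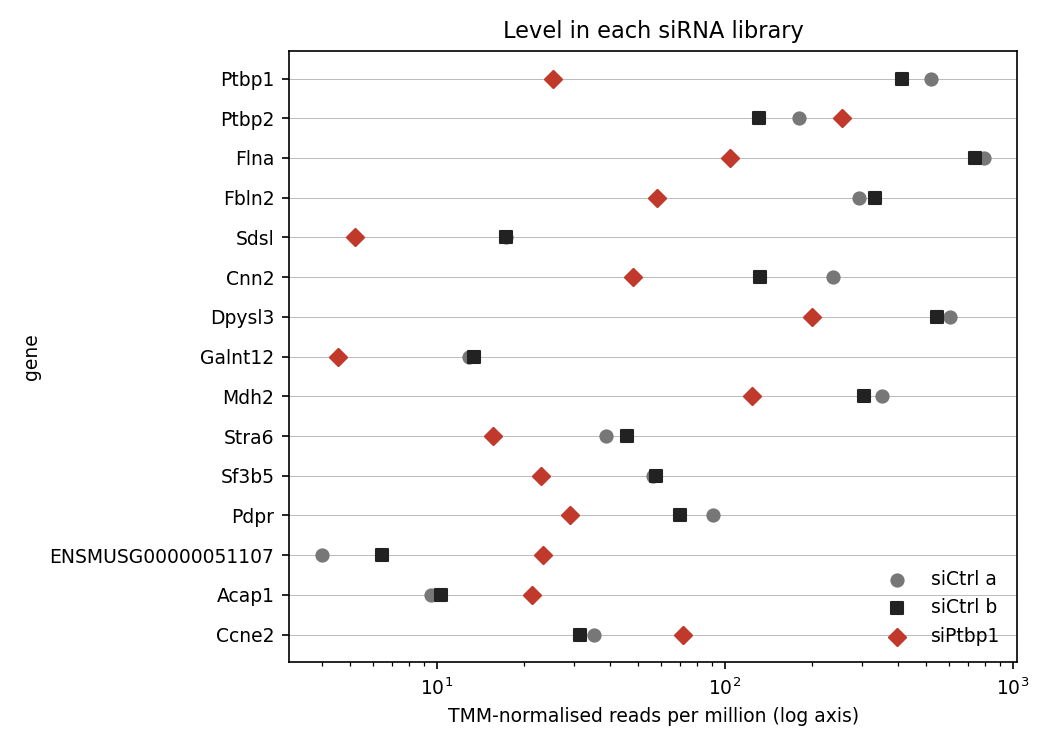
Level of each named gene in the 2 siCtrl libraries (grey circles and black squares) and the siPtbp1 library (red diamonds), in TMM-normalised CPM on a log axis. Ptbp1 stands at 25.3 against 411 and 518 in the controls, the genes from Flna to Pdpr are below both controls, and the last 3 genes and Ptbp2 are above both.

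Beside Ptbp1, 2 further genes fell. Flna encodes filamin A, a rod that crosslinks actin filaments and ties them to membrane receptors. Its level was 794 CPM in siCtrl a, 739 in siCtrl b and 104 in siPtbp1. Against the control mean of 767 ± 39 CPM (SD, n = 2) this was 7.39-fold lower (log2 fold change -2.88, SE 0.33, edgeR adjusted p = 0.00576, -2.83 against control b). Fbln2 encodes fibulin 2, a secreted protein of basement membranes and elastic fibres. Its level was 291 CPM in siCtrl a, 331 in siCtrl b and 58 in siPtbp1, 5.36-fold below the control mean of 311 ± 28.3 CPM (SD, n = 2; log2 fold change -2.42, SE 0.28, edgeR adjusted p = 0.00576, -2.50 against control b). For both genes siPtbp1 was also the lowest of the 6 N2A files: Flna had 12.7 RPKM against 63 to 149, and Fbln2 had 12.8 RPKM against 58.1 to 168. These 3 lower genes are 0.027% of the genes tested, and edgeR called 0 genes (0%) higher. At an unadjusted p under 0.05, 171 genes (1.54%) were higher and 368 (3.31%) lower. DESeq2 called 2 genes higher (0.018%) and 23 lower (0.207%), and limma on log2(RPKM + 1) called 32 (0.288%) and 69 (0.62%). The calls of Ptbp1, Flna and Fbln2 were also made by both of these tools. All 3 lost the call in edgeR without a dispersion trend, and Flna and Fbln2 lost it with a minimum of 5 RPKM. The adjusted p over all tools and settings spanned 1.64e-76 to 0.0687 (Ptbp1), 4.71e-33 to 0.145 (Flna) and 8.91e-21 to 0.285 (Fbln2).

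A 2-fold rule against each control separately gave a wider set, described without a test. On the log2(CPM + 0.5) scale, 4 genes (0.0359%) were at least 2-fold above each control and 33 (0.297%) at least 2-fold below each. Against control b alone these counts were 9 (0.0809%) and 61 (0.548%), and against control a alone 78 (0.701%) and 251 (2.26%). The controls themselves differed by 2-fold or more in 114 genes (1.02%) that were higher in b and 140 (1.26%) that were lower. By these counts siPtbp1 was closer to control b than to control a, and closer to control b than the controls were to each other. Of the 33 lower genes, 30 were lowest in siPtbp1 among the 6 N2A files by RPKM, against 11.3% of all genes. The 33 were picked for lying below the 2 controls, which are among these files, so part of this count was fixed by the rule.

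Several of the lower genes belong to the cytoskeleton. Cnn2, calponin 2, an actin-binding protein of contractile and migrating cells, had 237 CPM in siCtrl a, 132 in siCtrl b and 48.1 in siPtbp1 (log2 difference -1.94, SE 0.34, edgeR adjusted p = 0.165). Dpysl3, which encodes a collapsin response mediator protein that acts on microtubules and actin in growth cones, had 606, 546 and 201 CPM (log2 difference -1.52, SE 0.30, edgeR adjusted p = 0.211). Neither gene overlapped the controls or passed edgeR's test, while DESeq2 called both lower.

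Others are metabolic genes or splicing genes. Mdh2, the mitochondrial malate dehydrogenase of the citric acid cycle, had 352 and 304 CPM in the controls and 124 CPM in siPtbp1, a 2.64-fold lower level. Pdpr, the regulatory subunit of the phosphatase that activates pyruvate dehydrogenase, had 91.1, 69.5 and 29 CPM. Sf3b5, a small subunit of the SF3b complex of the U2 snRNP, had 56.1, 57.8 and 22.9 CPM. In each case the controls lay within 1.5-fold of each other and siPtbp1 was at least 2-fold below both. Stra6, the membrane receptor for retinol binding protein, had 38.5, 45.7 and 15.6 CPM. Sdsl, a serine dehydratase-like enzyme, had 17.3, 17.3 and 5.2 CPM, and Galnt12, a transferase that starts mucin-type O-glycans, had 12.9, 13.4 and 4.52 CPM. Their edgeR adjusted p ran from 0.165 (Pdpr) to 0.472 (Galnt12).

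Fewer genes were higher. Ccne2, cyclin E2, which activates Cdk2 at the entry into S phase, had 35.2 and 31.4 CPM in the controls and 71.2 CPM in siPtbp1 (log2 difference 1.10, SE 0.22, edgeR adjusted p = 0.238). Acap1, a GTPase-activating protein for Arf6 in endosomal recycling, had 9.53, 10.3 and 21.3 CPM. A gene listed only by its identifier, ENSMUSG00000051107, had 3.99, 6.46 and 23.3 CPM (log2 difference 2.15, SE 0.37, edgeR adjusted p = 0.165). The last of the 4, the cGMP-dependent kinase gene Prkg2, had 1.93, 3.22 and 10.6 CPM, lay under the 3 RPKM set for naming and is named after its values were seen. DESeq2 called ENSMUSG00000051107 and Prkg2 higher. Prkg2 had 0.37 and 0.68 RPKM in the controls and 2.22 in siPtbp1, so it reached the mean of 1 RPKM only through siPtbp1. It was higher still in the hairpin files, at 6.58 (shGFP) and 4.69 RPKM (shnSR100). Of all genes tested, 54 had a control mean under 1 RPKM. By RPKM, Ccne2 was at 26.4 in siPtbp1 and between 8.18 and 13 in the other 5 N2A files.

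**Figure D2:**
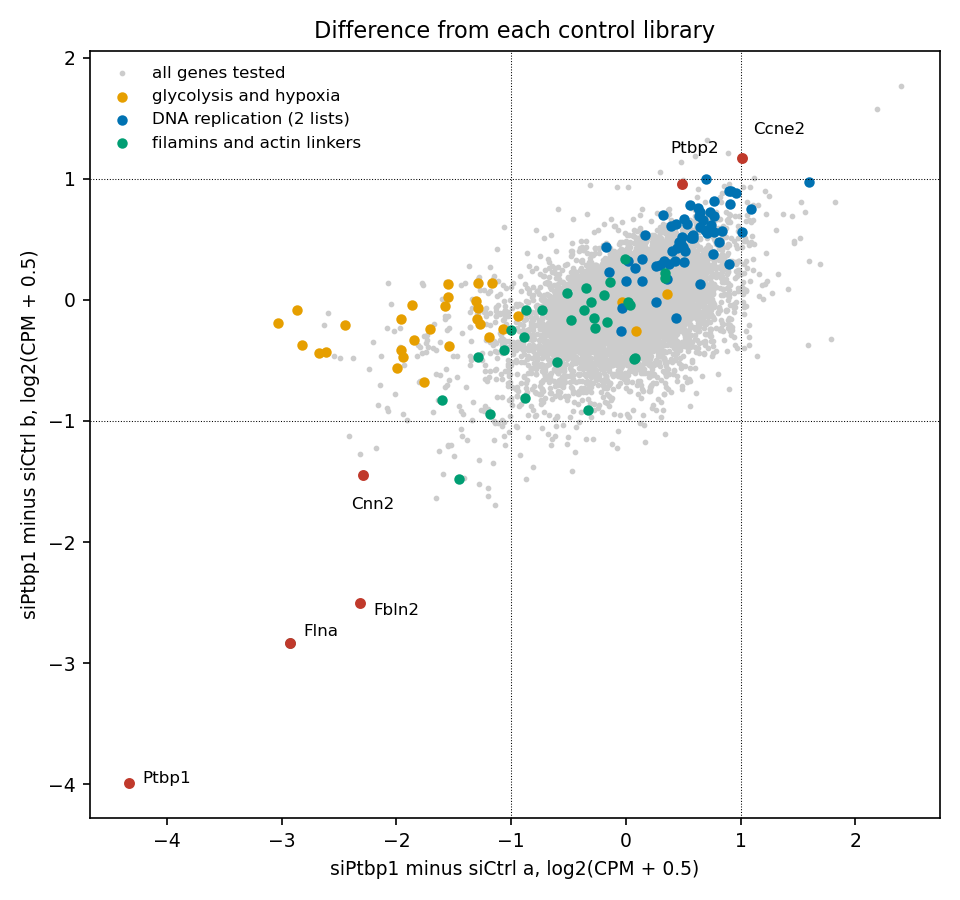
Difference of siPtbp1 from siCtrl a (x axis) and from siCtrl b (y axis) in log2(CPM + 0.5) for all 11128 genes, with dotted lines at 2-fold. Ptbp1, Flna and Fbln2 lie far down the diagonal, the DNA replication genes lie up and to the right of 0 on both axes, and the glycolysis and hypoxia genes spread along the x axis only.

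Genes of DNA replication were above both controls as a group. They encode the MCM helicase and its loaders, the polymerases with their clamp and loader, and the enzymes that make deoxynucleotides. In the list of the MCM helicase, origin and fork, 25 of 30 tested genes were above both controls and 1 below (83.3% above, against 32.9% of all genes), with a median log2 difference of 0.59 (quartiles 0.32 and 0.70). In the list of DNA polymerases, clamp and nucleotides it was 29 of 31 above (93.5%) and 1 below, with a median of 0.50 (quartiles 0.34 and 0.65). The median over all genes tested was 0. The same medians were 0.54 and 0.51 against control b alone, and the controls differed from each other by a median of 0.01 and 0.05. No member passed edgeR's adjusted test, and 33 of the 61 had an unadjusted p under 0.05, all of them higher, against 1.54% of all genes. Limma on log2(RPKM + 1) called 11 of the 61 higher, against 0.288% of all genes. EdgeR scaled by library totals alone called 8 (0.144% of all genes), edgeR with no RPKM filter called 3 (0.0638% of the 17235 genes then tested), and DESeq2 called 0 (0.018%). A call by limma, by library totals or with no filter need not mean a difference from both controls. All of these settings also called Adm lower, which differed from control b by -0.19 and from control a by -3.03 on the log2 scale.

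The size of these differences exceeded the gap between the controls for most members. In 46 of the 61 genes, siPtbp1 was above the nearer control by more than the controls differed from each other, against 15.6% of all genes. In 52 of the 61, siPtbp1 was the highest of the 6 N2A files by RPKM, against 16.3% of all genes. The 6 files were each scaled by their own total, and the hairpin lines are other cells, so these ranks are descriptive.

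Cdc6, which with Cdt1 loads the MCM helicase onto origins, had the largest difference of the 2 lists. It had 16.3 and 25.3 CPM in the controls and 50.2 CPM in siPtbp1 (log2 difference 1.27, SE 0.29, edgeR adjusted p = 0.327). Cdt1 had 169, 137 and 275 CPM, and the helicase subunit Mcm4 had 75.2, 76.5 and 143 CPM. Clspn, claspin, which links the fork to the checkpoint kinase Chk1, had 35.4, 44.9 and 76.1 CPM. For all 4 genes siPtbp1 was above the nearer control by more than the controls differed on the log2 scale. At the other end, the origin recognition subunits Orc4 and Orc5 had 101, 77.6 and 91.4 CPM and 32.8, 33.9 and 32.2 CPM.

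Among the polymerase and nucleotide genes, Pcna, the sliding clamp, had 197 and 198 CPM in the controls and 369 CPM in siPtbp1 (log2 difference 0.90, SE 0.24, edgeR adjusted p = 0.553). Rpa2, a subunit of the single-strand binding protein, had 56, 59.4 and 110 CPM. Rrm2, the ribonucleotide reductase subunit made in S phase, had 87.4, 95.4 and 165 CPM, and the clamp loader subunit Rfc3 had 43.4, 42 and 74.4 CPM. The controls of these 4 genes differed by under 1.5-fold and siPtbp1 was above both. Thymidylate synthase, Tyms, was the exception with 28.2, 32.9 and 27.4 CPM, and the flap endonuclease Fen1 had 39.7, 48.3 and 47.8 CPM.

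The regulators of the G1 to S transition were more often above both controls than all genes were, though not uniformly. Of 27 tested, 17 were above both controls (63%, against 32.9% of all genes) and 3 below (11.1%, against 30.9%). Their median log2 difference was 0.19. In 13 of the 27, siPtbp1 was above the nearer control by more than the controls differed, against 15.6% of all genes. Beside Ccne2, cyclin E1 (Ccne1) had 43.6 and 41 CPM in the controls and 79.4 CPM in siPtbp1, cyclin D3 (Ccnd3) had 58.9, 37.1 and 82.3 CPM, and the transcription factor E2f2 had 42.2, 56.3 and 84 CPM. Myc and the Cdk inhibitor Cdkn1b (p27) were below both controls, with 127, 126 and 84.8 CPM and 188, 137 and 121 CPM. Genes of mitosis were shifted less: 11 of 30 were above both controls and 6 below, against 32.9% and 30.9% of all genes. Their median was 0.06. Mad2l1, a spindle checkpoint protein, was the highest at 0.48 and the kinesin Kif2c the lowest at -0.47 on the log2 scale. Against control a alone the median of the mitosis list was -0.02. Against control b alone it was 0.16, with 23 of 30 members above that control. By RPKM, siPtbp1 was the highest of the 6 N2A files in 53.3% of the list, against 16.3% of all genes. The 5 tested replication-dependent histone genes had a median of -0.76 and a median of -0.87 between the controls. Most histone transcripts lack a poly(A) tail, and the library used polyadenylated RNA.

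**Figure D3:**
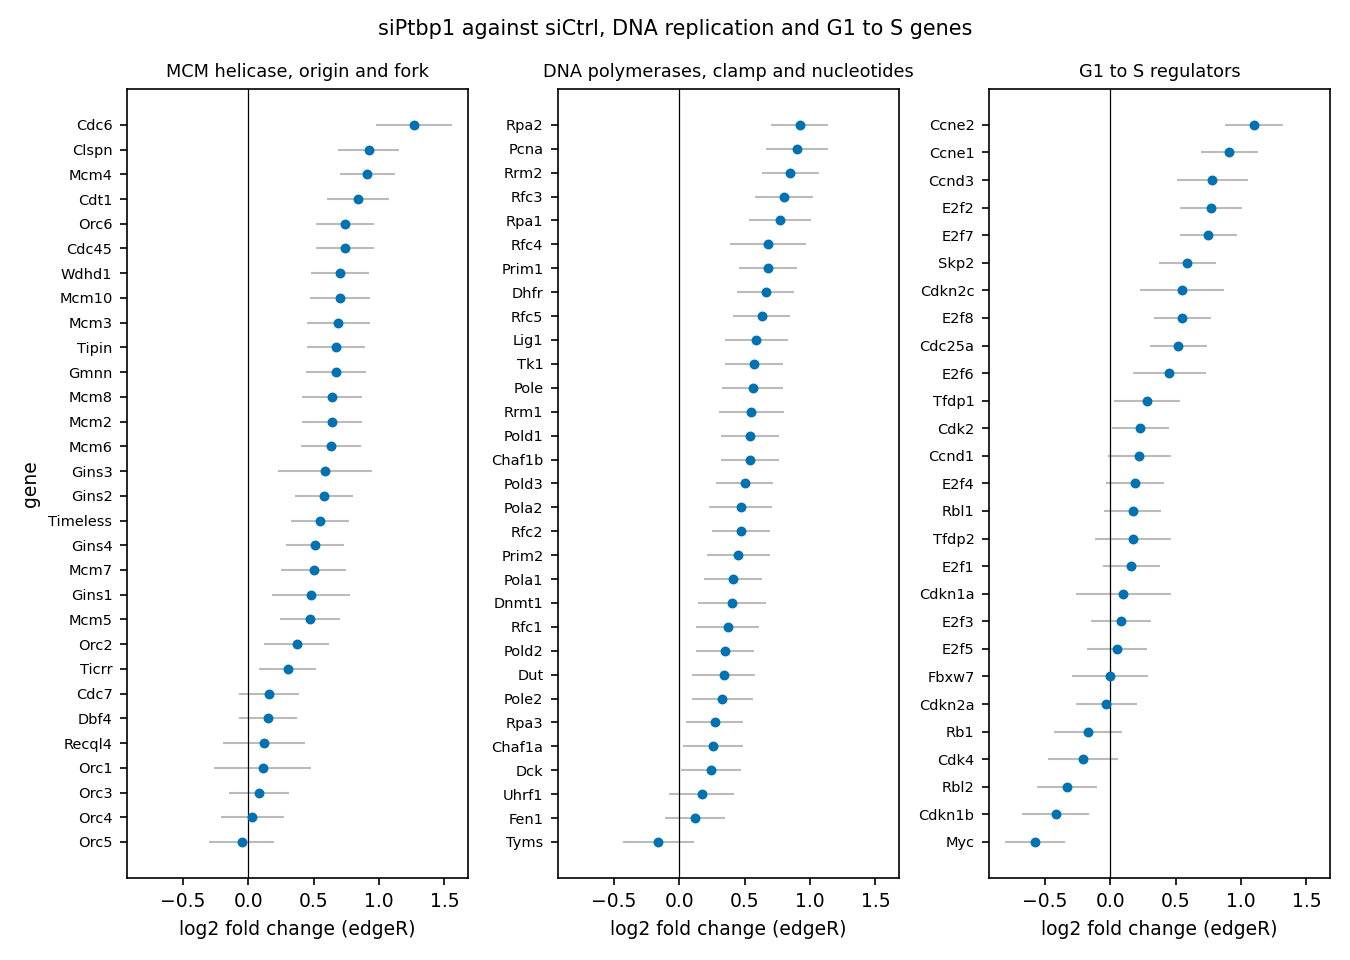
Log2 fold change of siPtbp1 against siCtrl for each tested gene of 3 lists, with bars for the approximate SE from edgeR. In the 2 replication lists 59 of 61 genes lie to the right of 0, from Tyms at -0.16 to Cdc6 at 1.27, and the G1 to S list runs from Myc at -0.58 to Ccne2 at 1.10.

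Many replication genes are known targets of E2F transcription factors, which bind short GC-rich strings near the start of transcription. Windows from 250 bases before to 50 after the gene start, taken from RefSeq on GRCm38.p6, were searched on both strands for 4 strings of this kind: TTTCCCGC, TTTCGCGC, TTTGCCGC and TTTGGCGC. A gene was counted once if any of its promoters held a string, however many strings there were or however they overlapped. Of the 61 replication genes, 50 had a promoter in the table and 19 of these (38%) held a string. The share was 5% of the 8655 tested genes with a promoter and 2.6% of all 27025 genes of the table. It was 38.1% for the G1 to S list and 4.2% for the mitosis list. Of the 14 members of the 3 lists with a log2 difference of at least 0.75, 12 had a promoter and 6 of these held a string. Windows of 5 of these are shown, with each string in capitals in a stretch of 30 bases, 5′ to 3′ on the gene's strand. They were picked by log2 difference and not by level. Whether the strings bear on the differences was not tested. A match is a description of letters and not a bound site.
Cdc6, chr11:98908002-98908031, plus strand: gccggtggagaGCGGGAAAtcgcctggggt
Clspn, chr4:126556990-126557019, plus strand: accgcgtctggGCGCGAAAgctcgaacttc
E2f2, chr4:136172294-136172323, plus strand: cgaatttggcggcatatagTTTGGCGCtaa
E2f7, chr10:110745230-110745259, plus strand: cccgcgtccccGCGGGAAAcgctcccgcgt
Rfc3, chr5:151651200-151651229, minus strand: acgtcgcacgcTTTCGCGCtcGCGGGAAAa
In Cdc6, Clspn and E2f7 the string is read on the opposite strand and in E2f2 on the gene's own strand, and the Rfc3 window holds one on each strand.

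Genes that organise actin were more often below both controls than above. Over all genes tested, 30.9% were below both controls and 32.9% above, with a median of 0, and the lists that follow are read beside these shares. Of 30 tested filamins and actin linkers, 19 were below both controls and 2 above, with a median log2 difference of -0.26 (-0.18 against control b). Flna led the list. Vinculin (Vcl), which couples integrin adhesions to actin, had 250, 146 and 81.9 CPM, and Lpp, a LIM protein of the same adhesions, had 39.3, 33.2 and 17.1 CPM. Pxn (paxillin) and Actn2 were above both controls, with 15, 16.4 and 19.1 CPM and 19, 21.3 and 24.2 CPM. Of 25 tested actins, myosin II subunits and tropomyosins, 15 were below and 6 above, with a median of -0.23. Caldesmon (Cald1), which holds actin and tropomyosin and restrains myosin, had 229, 183 and 79.2 CPM, and the myosin light chain Myl9 had 5.08, 2.38 and 0.735 CPM. γ-actin (Actg1) had 8741, 4987 and 2814 CPM. Tpm2 and Pfn2 were above both controls by a small margin, at 0.30 and 0.32 on the log2 scale. The controls differed in the same direction, with medians of -0.24 and -0.30 for control b against control a in the 2 lists. In 9 of 30 and 9 of 25 genes siPtbp1 was below the nearer control by more than that gap, against 13.7% of all genes. Flna was the only gene of the 2 lists that passed edgeR's test. Actg1 and other actins are near-identical in sequence, and their counts are uncertain for that reason.

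Genes of the basement membrane and matrix gave 13 of 21 below both controls and 3 above, with a median of -0.47, and -0.38 against control b. Fbln2 was far below the rest. The next lowest were P4ha2, Plod2 and Loxl2, enzymes that hydroxylate or crosslink collagen, and in these the controls differed most: P4ha2 had 486 CPM in siCtrl a, 191 in siCtrl b and 141 in siPtbp1, Plod2 had 455, 172 and 131, and Loxl2 had 133, 54.5 and 41.2. Col18a1 (collagen XVIII) and Sparc, a matrix glycoprotein, were above both controls, at 0.58 and 0.51 on the log2 scale. P3h1 and P3h3, which modify prolines of collagen and are named after their values were seen, had 14.4, 14.4 and 6.2 CPM and 33.4, 26.4 and 11.1 CPM, so for these the controls lay close together. Among integrins, cadherins and proteoglycans, 10 of 23 were below both controls and 5 above (median -0.13), and the syndecan Sdc3 had 72.4, 68.1 and 33.3 CPM.

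A separate group followed control b. Of 30 glycolysis and hypoxia genes, 24 were below both controls, with a median log2 difference of -1.04. The median was -1.57 against control a and -0.20 against control b, and control b was itself below control a by a median of -1.45. Adm, a secreted peptide induced by hypoxia, had 130 CPM in siCtrl a, 17.8 in siCtrl b and 15.6 in siPtbp1. Pdk1, which inhibits pyruvate dehydrogenase, had 54.8, 9.62 and 7.34 CPM, and Ndrg1 had 100, 20.9 and 15.3 CPM. The siPtbp1 values sat beside control b, and only 1 of the 30 genes was below the nearer control by more than the gap between the controls. What distinguishes control a from the other libraries was not tested.

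**Figure D4:**
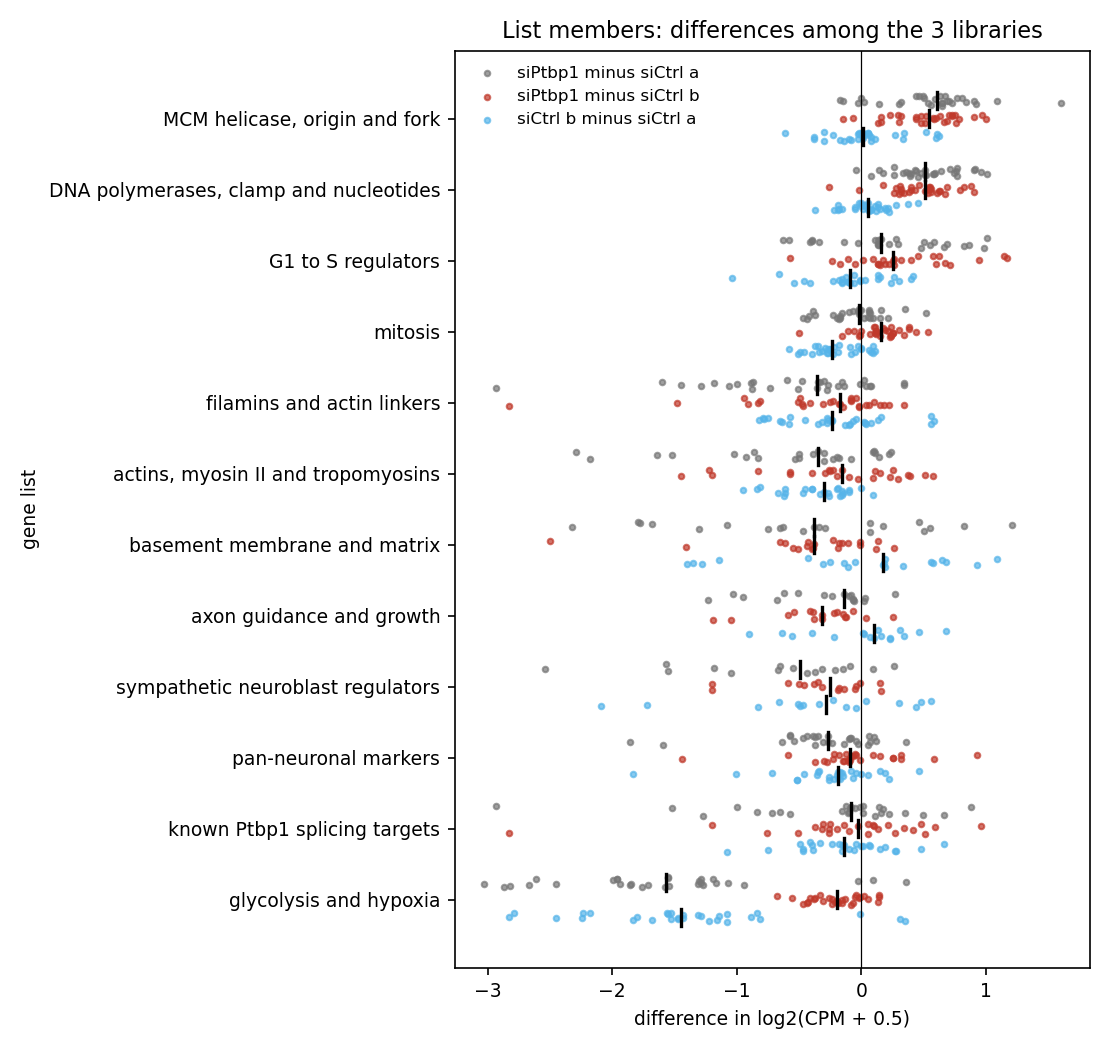
Differences in log2(CPM + 0.5) for every tested member of 12 gene lists, as siPtbp1 minus siCtrl a (grey), siPtbp1 minus siCtrl b (red) and siCtrl b minus siCtrl a (blue), with black bars at the medians. The replication lists have medians of 0.51 to 0.61 against either control and 0.01 and 0.05 between the controls, whereas the glycolysis and hypoxia list has -1.57 against control a, -0.20 against control b and -1.45 between the controls.

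Neuronal genes were not above the controls as a group. Of 28 tested pan-neuronal markers, 17 were below both controls and 3 above, with a median of -0.14 (-0.09 against control b). Dpysl3 was the lowest. Map2, a microtubule protein of dendrites, had 81.6, 84.3 and 55.9 CPM, and Eno2, neuronal enolase, had 765, 215 and 210 CPM, again with the controls far apart. Scg2 (secretogranin II) and Stmn4 were the highest, with 996, 495 and 944 CPM and 76.6, 53.4 and 80.3 CPM. Of 26 genes of synaptic vesicles and release, 12 were below and 8 above (median -0.12). Napb, β-SNAP, which disassembles SNAREs, had 94.8, 99.2 and 164 CPM (log2 difference 0.76, SE 0.22). Postsynaptic and adhesion genes gave 5 above and 5 below of 17 (median 0.06). Ion channels gave 2 above and 9 below of 19 (median -0.06), with Cacna1c, the L-type calcium channel, at 62.9, 71.9 and 42.3 CPM.

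Among the sympathetic neuroblast regulators, 12 of 16 were below both controls and none above, against 30.9% and 32.9% of all genes, with a median of -0.37 (-0.26 against control b). Ddc, the decarboxylase of catecholamine synthesis, had 7.01, 5.42 and 2.07 CPM, and Ngfr, the p75 neurotrophin receptor, had 82.3, 121 and 52.4 CPM. Dbh and Th, the other catecholamine enzymes, had 56.3, 12.9 and 9.24 CPM and 38.6, 11.4 and 12.7 CPM, so siPtbp1 was close to control b for both. Tfap2b, a transcription factor of the sympathetic lineage, lay at -0.07 on the log2 scale. Axon guidance genes gave 14 of 17 below both controls and 2 above (median -0.32), led by the ligand Slit3 (48.1, 51.6 and 24.7 CPM), the netrin receptor Unc5b (321, 206 and 137 CPM) and the semaphorin receptor Plxna4 (39.6, 63.6 and 27.7 CPM). Of 13 tested neurogenic transcription factors, 8 were below and 1 above (median -0.21), and 13 of the 31 in the files reached the level for testing. Insm1 and Myt1, factors of early neuronal differentiation, were at -0.40 and -0.35 on the log2 scale, and the Notch effector Hes5 at 0.28.

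The genes tied to Ptbp1 in neuronal conversion were near control levels. Rest had 105 and 73.7 CPM in the controls and 90.6 CPM in siPtbp1, between the controls. Of 18 tested genes of the miR-124 and REST circuit, 6 were above both controls and 4 below, with a median of 0.03. Rcor2, a corepressor of the CoREST family, was the lowest with 103, 62.3 and 46.3 CPM, and the phosphatase genes Ctdspl and Ctdsp1, known miR-124 targets that assist REST, had 4.38, 5.07 and 6.08 CPM and 14.6, 19.9 and 19.1 CPM. Of 15 miR-124 targets, which include Ptbp1 itself, 5 were below and 3 above (median 0.02). Iqgap1, an actin scaffold of that list, had 389, 317 and 169 CPM. BAF subunits that exchange between progenitors and neurons gave 10 of 18 below and 3 above (median -0.08), and Actl6b, the neuronal BAF53b, had 17.5, 13 and 19.2 CPM. The microRNA itself was not measured in these files.

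Transcripts known for exons under Ptbp1 control did not move together in total level. Of 27 tested, 8 were above both controls and 11 below, with a median of -0.03. The lowest were Flna, Cald1, Pkm and Actn1, and the highest were Ptbp2 and Gabbr1. Pkm, pyruvate kinase, had 4850, 2301 and 2005 CPM, and Actn1, α-actinin 1, had 730, 433 and 364 CPM, so both lay near control b. Gabbr1, a GABA-B receptor subunit, had 89.8, 94.2 and 142 CPM (log2 difference 0.62, SE 0.22, edgeR adjusted p = 0.78). A change of exon use without a change of total reads would not show in these values.

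Splicing regulators lay near their control levels. Of 21 neuronal splicing regulators, 3 were above both controls and 8 below (median -0.02), with Nova1 the highest (26.5, 35.5 and 41.8 CPM) and Srrm4 the lowest. SR and Tra2 proteins had a median of -0.06 with 4 of 19 above and 5 below, and hnRNP proteins a median of -0.06 with 4 of 25 above and 5 below. No member of these lists passed the test. Scaling by library totals alone, which moved the median of all genes by under 0.1, put the medians of the SR and hnRNP lists at 0.01 and 0.02 and that of the neuronal regulators at 0.05, so no direction is given for these lists. Nonsense-mediated decay factors gave 10 of 20 above and 5 below (median 0.06), with Smg6, an endonuclease of the pathway, the lowest at 84.1, 65.7 and 51.3 CPM.

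Stress and housekeeping lists had medians between -0.04 and 0.23. The list of ER chaperones and the unfolded protein response had 15 of 24 above both controls and 3 below (median 0.23), led by Hspa5 (BiP) with 1417, 1581 and 2402 CPM and Manf with 88.2, 108 and 138 CPM. Cholesterol synthesis genes gave 17 of 25 above and 6 below (median 0.14), with Msmo1 at 289, 289 and 387 CPM. Respiratory chain subunits gave 19 of 40 above and 3 below (median 0.07). Of the p53 targets 9 of 22 were above and 6 below (median 0.02), with cyclin G1 (Ccng1) at 27.4, 31.8 and 52 CPM. ATF4 and amino acid response genes had a median of 0.10, which was -0.11 against control b. Interferon-induced genes had a median of 0.08, immediate early genes 0.19, and ribosomal proteins -0.04, which was 0.17 against control b. Notch, Wnt, hedgehog and TGF-β genes gave 8 of 15 below and 3 above, with a median of -0.33 (-0.10 against control b) and the receptor Tgfbr1 at 136, 132 and 72.2 CPM. SRF and YAP responsive genes gave 7 of 10 below and 1 above, with a median of -0.31 (-0.36 against control b).

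Set directly against siU2af65 in a fit of all 4 siRNA libraries, siPtbp1 was higher in 285 genes (2.54% of 11237) and lower in 122 (1.09%) at an edgeR adjusted p under 0.05. This contrast sets 1 library against 1 and takes its error from the control pair. Ptbp1 was lower in siPtbp1 by a log2 value of -3.90 (SE 0.33, edgeR adjusted p = 0.00386). Flna and Fbln2 were lower as well, at -2.26 (SE 0.33, edgeR adjusted p = 0.0117) and -2.27 (SE 0.28, edgeR adjusted p = 0.00848), and so were Stra6 at -2.59, Sdsl at -2.43, Pdpr at -1.83, Mdh2 at -1.71 and Dpysl3 at -1.33. For Stra6, siU2af65 was itself above the controls, at 37.4 RPKM against 13.4 and 17.6, and so it was for Sdsl, at 25.4 RPKM against 13.8 and 15.2. By RPKM, siU2af65 was also above both controls for Pdpr and Mdh2, and below both for Flna and Dpysl3. Cnn2 did not pass: its difference was 0.10 (SE 0.35), and both knockdown libraries were below the controls, at 20.6 RPKM in siPtbp1 and 19.9 in siU2af65 against 91.7 and 56.8 in the controls. Of the 33 genes at least 2-fold below each control, 32 were tested here and 16 were lower than in siU2af65. The same siPtbp1 library enters both counts, so the second does not stand on its own.

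The replication genes also differed from siU2af65, in a contrast that uses the same siPtbp1 library and does not stand on its own. The counts of the lists are read beside the 2.54% higher and 1.09% lower of all genes in this contrast. Of the 61, 15 were higher in siPtbp1 and none lower, with a median log2 difference of 0.90. Rrm2 differed by 2.38, Cdc6 by 2.03, Clspn by 1.67 and Pcna by 1.57, and all 4 passed the test. Of the G1 to S regulators 5 were higher and 1 lower, with Ccne1 at 2.27 and E2f2 at 2.53, while Myc was lower at -1.27. Against siCtrl the differences were smaller: the median of the 61 was 0.54, with Cdc6 at 1.27, Clspn at 0.92, Ccne1 at 0.91 and E2f2 at 0.77. The contrast with siU2af65 thus also holds the distance of siU2af65 from the controls. The mitosis list had 14 of 30 higher and a median of 1.12 in this contrast, although its median against the siCtrl libraries was 0.06. Ptbp2 was 0.92 above siU2af65 (SE 0.29, edgeR adjusted p = 0.107). Acap1 had the widest difference of the named higher genes, 4.28, with 9.02 RPKM in siPtbp1, 0.48 in siU2af65 and 3.65 and 4.39 in the controls.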

How the data were processed

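Per the labels' protocols, RNA was extracted with TRI Reagent and standard Illumina mRNA-Seq libraries were made. Each deposited file lists Ensembl genes with 2 values made by the authors, a raw read count and RPKM. The latter is written as text for 1114 genes, so that column was recorded as other than a plain number, and those genes held at most 0.00749% of reads. RPKM equalled count over a fixed gene length and total, within 1%, for all 7632 genes checked. The submitters' processing notes name Bowtie, bedtools 2.17.0, hg19 and mm9 without saying what each was used for. The counting rule and strand use are not given in the sources used here. Symbols matched 20759 of 22667 identifiers.

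Deposited counts of the 3 siRNA libraries entered edgeR 4.0.16 (R 4.3.3) with TMM and its quasi-likelihood test, Benjamini-Hochberg adjusted, threshold 0.05, with 1 residual and 11.1 prior degrees of freedom and a common dispersion of 0.0365. DESeq2 1.42.0, limma 3.58.1 and other settings were alternatives. The SE is the log2 fold change over the square root of F. The 2-fold rule adds 0.5 CPM. Lists are described by counts and medians, with no test. Named genes are Ptbp1, Ptbp2 and its partners, the edgeR calls, the 12 largest differences per direction among genes 2-fold from each control with at least 3 RPKM, and the extreme members of each list. The members, rules and 40 gene lists were chosen with earlier results of these data known, and the promoter strings and the comparison with 6 files after the values were seen. Of 1050 list genes, 10 symbols had no match in the files. The pooled hairpin files combine 2 runs each and have no SD. The siRNA sequences, the 293T files and the crosslinking libraries were not used here. Some genes that the naming rule would give are not reported here.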

Additional observations from a re-analysis of the deposited data

How the results depend on the processing

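No paired analysis was possible because siPtbp1 has 1 library, which shares only the letter b with a control. Leaving out either control leaves 1 library against 1 with no residual degrees of freedom, so no count of edgeR calls was made. Under these omissions the median of the glycolysis and hypoxia list ran from -1.57 to -0.20 and those of the 2 replication lists from 0.51 to 0.61. The cause of each shift below was not tested.

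Against siCtrl, edgeR called 0 genes higher and 3 lower. The counts were 2 and 23 with DESeq2, 32 and 69 with limma on log2(RPKM + 1), 33 and 71 with limma on log2(RPKM + 0.1), 16 and 72 when scaled by library totals alone, and 11 and 93 with no RPKM filter. No gene was called higher with no dispersion trend or at a mean of at least 5 RPKM, and 0 and 1 were called lower. The fit of 4 libraries gave 0 and 3. Against siU2af65, the 285 higher and 122 lower genes became 517 and 272 with DESeq2, 604 and 462 with limma, 545 and 435 by library totals, and 86 and 28 at 5 RPKM.

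The 4 genes 2-fold above each control became 2 at 5 RPKM, 2 with a pseudocount of 2 CPM and 8 on the log2(RPKM + 1) scale, and the 33 below became 21 with 2 CPM. Against control b, the 9 above became 14 with no filter and 19 on the RPKM scale, and the 61 below became 35 at 5 RPKM and 40 with 2 CPM. Of 38 list medians, 17 took both signs over the alternatives, and those of the replication, actin, matrix, axon guidance and sympathetic lists did not.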
